A study of Mus musculus with 7 samples.

Results

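The miRNAs described here are the arms of the miR-143, miR-145, miR-199 and miR-214 hairpins in mouse testis. They were chosen by name: every listed miRNA whose name begins with miR-143-, miR-145a-, miR-145b, miR-199a-, miR-199b- or miR-214- was taken, which gave 10 of the 331 mature miRNAs listed, and no arm of miR-145b was listed. They are mmu-miR-143-3p, mmu-miR-143-5p, mmu-miR-145a-3p, mmu-miR-145a-5p, mmu-miR-199a-3p, mmu-miR-199a-5p, mmu-miR-199b-3p, mmu-miR-199b-5p, mmu-miR-214-3p and mmu-miR-214-5p, written below without the species prefix. Small RNAs of CD1 mice, an outbred strain with no allele or transgene named, were sequenced in 7 libraries, 1 for each condition. T6 and T10 were testes of 6.5 and 10.5 days post-partum (dpp) mice taken without culture, and TAD was testis of an adult, given as 2 months old. T6-12K and T10-12K were testes of those ages kept for 12 days in a gas-liquid interface culture on agarose with KSR, a serum replacement. T6-12A and T10-12A had AlbuMAX I, a lipid-rich bovine serum albumin, in its place. The study's methods describe removal of the tunica albuginea, the connective tissue coat of the testis, before culture. Whether it was also removed from T6, T10 and TAD is not given in the sources used here, so culture and loss of this coat cannot be told apart. No condition had a replicate library, so no difference was tested against variation between animals, and every interval is a 95% interval for counting error only. All libraries held whole testis RNA, in which fewer cells of a type and less RNA per cell cannot be told apart, and the name mesenchymal for these miRNAs comes from background knowledge, not from these data.

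A miRNA is cut from a hairpin precursor whose stem yields a 5p and a 3p arm, and usually one of them enters the silencing complex in larger amounts. The arm pairs with messenger RNAs mainly through its seed, bases 2 to 8. miR-143 and miR-145 come from a shared precursor transcript and are known as miRNAs of smooth muscle and other mesenchymal cells, where miR-145 favours the contractile state. miR-199a and miR-214 are made together from the long non-coding RNA Dnm3os and are known from mesenchyme and fibroblasts. In the testis, the smooth muscle-like myoid cells around the seminiferous tubules, the vessels and the interstitial fibroblasts are mesenchymal, whereas germ cells make up a growing part of the organ from birth to the adult.

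Positions are those of GRCm38 (mm10). Mir199a-2 (chromosome 1, 162217814 to 162217923) and Mir214 (chromosome 1, 162223368 to 162223477) lie on the plus strand, 5444 bases apart, in exons of Dnm3os and opposite to introns of Dnm3. Mir199a-1 (chromosome 9, 21496495 to 21496564, minus strand) lies opposite to an intron of Dnm2, and Mir199b (chromosome 2, 32318460 to 32318569, plus strand) opposite to an intron of Dnm1. RefSeq mature sequences (GRCm38.p6) were matched for 5 of the 10 arms and are shown because 2 of them are the same molecule, with the seed in capitals:
miR-199a-3p: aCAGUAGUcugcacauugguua
miR-199b-3p: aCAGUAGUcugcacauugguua
miR-199a-5p: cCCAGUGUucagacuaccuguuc
miR-214-3p: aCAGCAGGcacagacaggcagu
miR-214-5p: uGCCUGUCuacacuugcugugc
miR-199a-3p and miR-199b-3p are identical over all 22 bases. Seeds were compared among the 288 of the 331 listed miRNAs with a matched sequence. There, the seed of miR-199a-3p was found only in it and in miR-199b-3p. The seeds of miR-199a-5p, miR-214-3p and miR-214-5p were each found in no miRNA but the arm itself. The arm miR-199b-5p had no matched sequence and was left out of this comparison. Its hairpin, Mir199b, also holds the bases CCAGUGU, so miR-199b-5p may share the seed of miR-199a-5p.

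The hairpins that carry this shared 3p arm, here in capitals, differ around it:
Mir199a-1: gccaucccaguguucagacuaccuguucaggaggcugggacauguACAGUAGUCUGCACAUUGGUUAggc
Mir199a-2: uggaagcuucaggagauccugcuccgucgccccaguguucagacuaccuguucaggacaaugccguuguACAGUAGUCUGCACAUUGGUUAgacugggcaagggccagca
Mir199b: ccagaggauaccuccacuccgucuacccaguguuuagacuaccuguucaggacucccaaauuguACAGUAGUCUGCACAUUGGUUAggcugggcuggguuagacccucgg
A read of the 3p arm therefore fits all 3 hairpins. The sequence of miR-199a-5p stands once in Mir199a-1 and once in Mir199a-2 and not in Mir199b, so a full-length 5p read can tell miR-199b from miR-199a.

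The authors deposited 1 signal per miRNA and library, which is the number of reads divided by a factor for that library. In each library the signals were multiples of 1 number, the worth of 1 read, from 0.615 in T6 to 3.19 in TAD. Division by it gave estimated reads, and in every library 100% of the values below 10000 reads then lay within 0.1 of a whole number. The reads on listed miRNAs ranged from 1628770 in TAD to 13397407 in T10. Levels are given as CPM, the reads of a miRNA per 1000000 reads of all listed miRNAs in that library. The smallest number above 0 was 5 reads in 6 libraries and 7 in T10, and up to 4 reads may stand behind a 0. In TAD 5 reads were worth 3.07 CPM, against 0.374 in T6, and this value stands in for 0 where a bound is given.

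miR-143-3p made up nearly all of the group's reads and was the second most abundant of the 331 miRNAs in every library. Its CPM was 103729 in T6 and 145909 in T10 before culture, 212659 in T6-12K and 199649 in T10-12K with KSR, 156675 in T6-12A and 176083 in T10-12A with AlbuMAX I, and 258115 in TAD. The lowest value belonged to the youngest testis, all 4 cultures lay above both prepuberal testes, and the adult lay above all others. As a share of listed miRNA reads this was 10.4% in T6 (95% Wilson interval from 10.36 to 10.39%) and 25.8% in TAD (25.74 to 25.88%). No neighbours in this order had overlapping counting intervals, with read numbers between 420410 and 2112680. The other arm of its hairpin, miR-143-5p, was rare, with 94 reads in T6 and 88 in T10 before culture, 68 in T6-12K and 35 in T10-12K with KSR, 29 in T6-12A and 32 in T10-12A with AlbuMAX I, and 0 in TAD. miR-143-3p thus outnumbered miR-143-5p by a factor of 14747 in T6 and 58314 in T6-12A, and of at least 84082 in TAD.

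**Figure D1:**
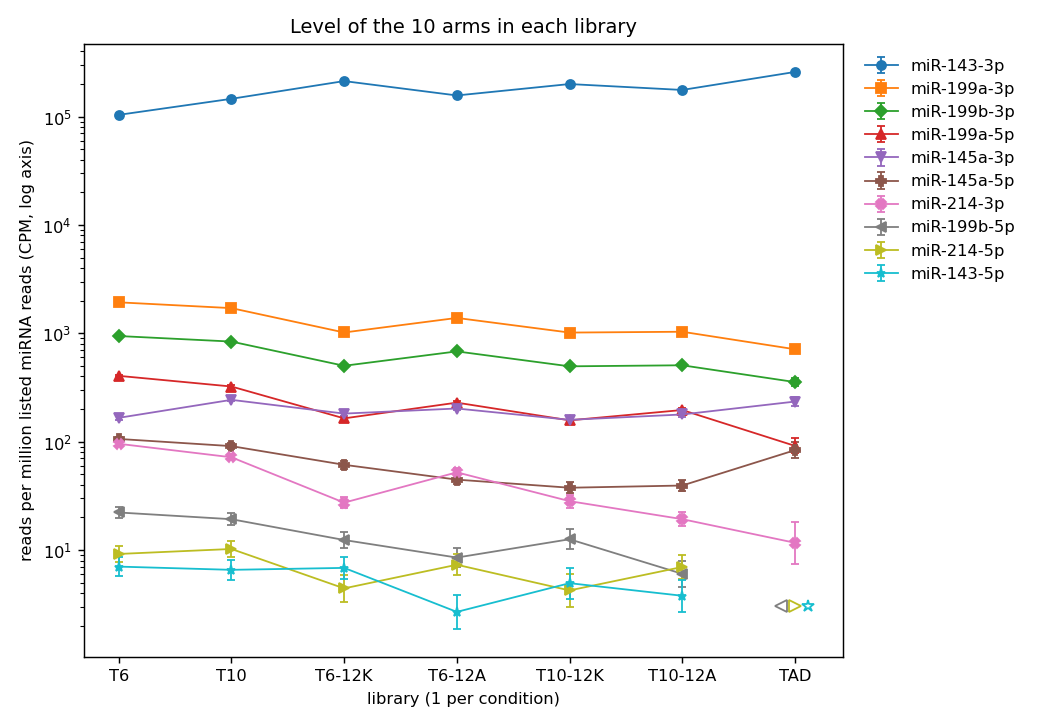
CPM (log axis) of each of the 10 arms in the 7 libraries, with 95% Wilson intervals for counting error as bars and open symbols at the worth of 5 reads for arms listed at 0. Lines only join the values of 1 arm and are not a time course. miR-143-3p lies between 103729 and 258115 CPM, and the other 9 arms lie between 2.69 and 1932 CPM where they were above 0.

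The 9 remaining arms together held 0.369% of the listed miRNA reads in T6 and 0.331% in T10 before culture, 0.198% in T6-12K and 0.192% in T10-12K with KSR, 0.262% in T6-12A and 0.199% in T10-12A with AlbuMAX I, and 0.149% in TAD. Their summed share was thus highest in the prepuberal testes before culture and lowest in the adult, the reverse of the order of miR-143-3p at both ends. Most of these reads belonged to miR-199a-3p and miR-199b-3p, with 38432 of 49274 in T6 and 1739 of 2425 in TAD. Among the 9 arms only miR-145a-3p lay higher in TAD than in T6.

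On GRCm38, Mir143 (chromosome 18, 61649196 to 61649258) and Mir145a (chromosome 18, 61647825 to 61647894) lie on the minus strand, 1301 bases apart and outside other annotated genes. miR-145a was listed with both arms at levels far below miR-143-3p. miR-145a-3p stood at 166 CPM in T6 and 243 in T10 before culture, 182 in T6-12K and 159 in T10-12K with KSR, 202 in T6-12A and 178 in T10-12A with AlbuMAX I, and 235 in TAD. It varied least among the more abundant arms, and T10 and TAD, the highest 2 libraries, had overlapping counting intervals. miR-145a-5p, the arm usually described as the active one, stood at 106 CPM in T6 and 90.99 in T10 before culture, 61.2 in T6-12K and 37.6 in T10-12K with KSR, 44.7 in T6-12A and 39.4 in T10-12A with AlbuMAX I, and 83.5 in TAD. All 4 cultures lay below all 3 uncultured testes in miR-145a-5p, with overlapping intervals between T10-12K, T10-12A and T6-12A in turn.

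The 3p arm of miR-145a outnumbered the 5p arm in every library. Its share of the miR-145a reads was 61.05% in T6 (95% Wilson interval from 59.45 to 62.62%) and 72.8% in T10 before culture, 74.8% in T6-12K and 80.9% in T10-12K with KSR, 81.9% in T6-12A and 81.9% in T10-12A with AlbuMAX I, and 73.75% in TAD (69.79 to 77.35%). T6 lay lowest and 3 of the 4 cultures highest. A share of arms within 1 library does not depend on how libraries are scaled to each other.

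The 3p arm of miR-199 was the most abundant product of the miR-199 and miR-214 hairpins. miR-199a-3p stood at 1932 CPM in T6 and 1708 in T10 before culture, 1018 in T6-12K and 1016 in T10-12K with KSR, 1387 in T6-12A and 1034 in T10-12A with AlbuMAX I, and 713 in TAD. The prepuberal testes lay above all cultures and the adult below them, and the counting intervals of T10-12K and T6-12K overlapped, as did those of T6-12K and T10-12A. miR-199b-3p followed the same order at a lower level, from 944 CPM in T6 to 355 in TAD.

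The reads on this single sequence were divided between the 2 names in nearly constant proportion. miR-199b-3p held 32.8% of them in T6 and 32.95% in T10, 33.01% in T6-12K and 32.8% in T10-12K with KSR, 32.9% in both AlbuMAX I cultures and 33.2% in TAD. Over the 7 libraries summed this was 32.9% (95% Wilson interval from 32.7 to 33.2%), beside 33.3% for 1 of 3 hairpins. The stretch of the 5p arm differs by 1 base between Mir199b and the Mir199a hairpins, and its reads gave another division. There, miR-199b-5p held 5.15% of the miR-199 5p reads over the 7 libraries summed (4.83 to 5.48%). How many mismatches the alignment allowed is not given in the sources used here, so the 5p shares may include misassigned reads. How reads that fit several hairpins were counted is not given in the sources used here. The separate levels of miR-199a-3p and miR-199b-3p are therefore uncertain, and only their sum was measured as a sequence.

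miR-199a-5p stood at 405 CPM in T6 and 323 in T10 before culture, 164 in T6-12K and 157 in T10-12K with KSR, 229 in T6-12A and 196 in T10-12A with AlbuMAX I, and 91.5 in TAD. It kept the library order of the 3p arm. miR-199b-5p had 297 reads in T6 and 258 in T10 before culture, 123 in T6-12K and 89 in T10-12K with KSR, 92 in T6-12A and 51 in T10-12A with AlbuMAX I, and 0 in TAD. In CPM this was 22.2 in T6 and 19.3 in T10, whose counting intervals overlapped, and between 6.03 and 12.6 in the cultures.

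Among the miR-199 5p reads, the miR-199b share differed between the media at both ages. It was 7.02% in T6-12K (95% Wilson interval from 5.91 to 8.31%) and 7.40% in T10-12K (6.05 to 9.02%), against 3.58% in T6-12A (2.93 to 4.38%) and 2.99% in T10-12A (2.28 to 3.905%). Both AlbuMAX I libraries lay below both KSR libraries without overlap of the intervals, and T6 (5.20%) and T10 (5.63%) lay between them. In TAD, with 149 reads of miR-199a-5p, even 5 reads of miR-199b-5p would make 3.25%.

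**Figure D2:**
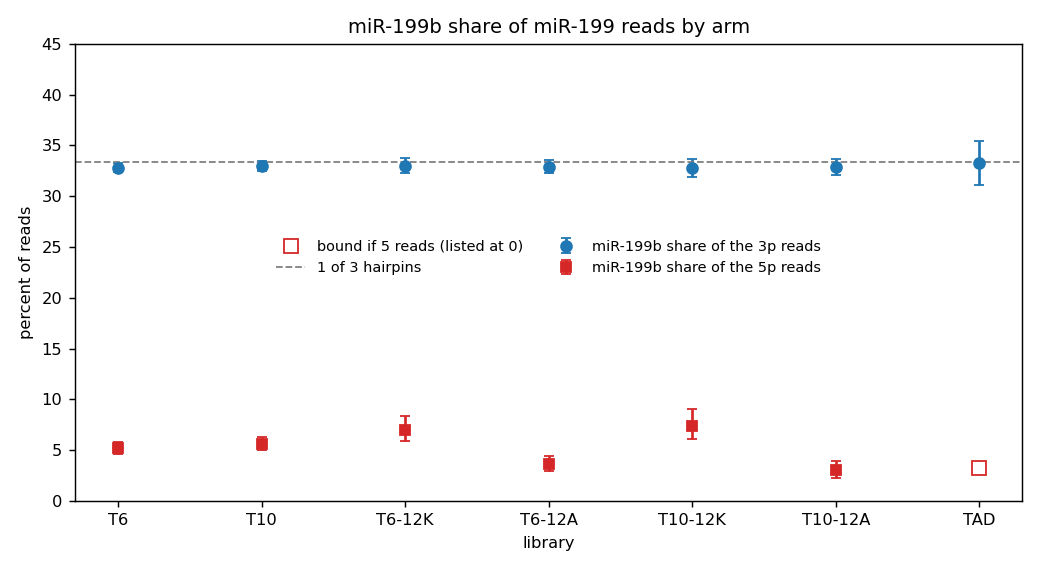
Percent of miR-199 reads listed under miR-199b, for the 3p arm (circles) and the 5p arm (squares), in each library, with 95% Wilson intervals as bars. The 3p shares lie between 32.8 and 33.2% along the dashed line at 1 of 3 hairpins, whereas the 5p shares lie between 2.99 and 7.40%, and the open square is the bound of 3.25% in TAD, where miR-199b-5p was listed at 0.

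miR-214, which shares the Dnm3os transcript with miR-199a-2, was less abundant than miR-199a and differed more between libraries. miR-214-3p stood at 95.6 CPM in T6 and 71.8 in T10 before culture, 27.4 in T6-12K and 28.3 in T10-12K with KSR, 52.2 in T6-12A and 19.3 in T10-12A with AlbuMAX I, and 11.7 in TAD. The prepuberal testes were highest, and TAD, with 19 reads (95% Wilson interval from 7.47 to 18.2 CPM), had an interval that overlapped that of T10-12A. miR-214-5p had 123 reads in T6 and 137 in T10 before culture, 44 in T6-12K and 30 in T10-12K with KSR, 79 in T6-12A and 59 in T10-12A with AlbuMAX I, and 0 in TAD. The 5p arm held 26.6% of the miR-214 reads in T10-12A (21.2 to 32.75%), above the other 5 libraries with reads of both arms, which lay between 8.78 and 13.9%.

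Ratios between members within 1 library are free of any scaling between libraries. The reads of miR-143-3p divided by those of miR-199a-3p were 53.7 in T6 and 85.4 in T10 before culture, 209 in T6-12K and 196.5 in T10-12K with KSR, 113 in T6-12A and 170 in T10-12A with AlbuMAX I, and 362 in TAD (95% interval from 342 to 384). The ratio in TAD was 6.74 times that in T6 (53.04 to 54.36), and all cultures lay between the prepuberal testes and the adult. With the miR-199 3p reads summed the factor was 6.70, so this difference does not rest on how the reads were divided between names. Without TAD, the highest ratio was 3.89 times the lowest, and without T6 it was 4.24 times.

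The 2 neighbours miR-143 and miR-145a did not keep a fixed ratio. miR-143-3p exceeded miR-145a-3p by a factor of 625 in T6 and 600 in T10 before culture, 1171 in T6-12K and 1255 in T10-12K with KSR, 774 in T6-12A and 988 in T10-12A with AlbuMAX I, and 1101 in TAD. It exceeded miR-145a-5p by a factor of 979 in T6, 1604 in T10 and between 3091 and 5311 in the other 5 libraries. The summed miR-199 3p reads exceeded miR-214-3p by a factor of 30.1 in T6 (28.4 to 31.8) and 35.5 in T10 before culture, 55.5 in T6-12K and 53.5 in T10-12K with KSR, 39.7 in T6-12A and 79.9 in T10-12A with AlbuMAX I, and 91.5 in TAD (58.2 to 144). Each of these ratios was lower in T6 and T10 than in the other 5 libraries, but for miR-199 to miR-214-3p the intervals of T10 (33.3 to 37.8) and T6-12A (36.5 to 43.1) overlapped. The miR-199 3p reads fit hairpins at 3 places, of which 1 lies beside Mir214. For miR-199 itself, the 3p reads exceeded the 5p reads by a factor of 6.73 in T6 (6.54 to 6.92) and 11.7 in TAD (9.87 to 13.8), with the other libraries between 7.44 and 8.89.

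**Figure D3:**
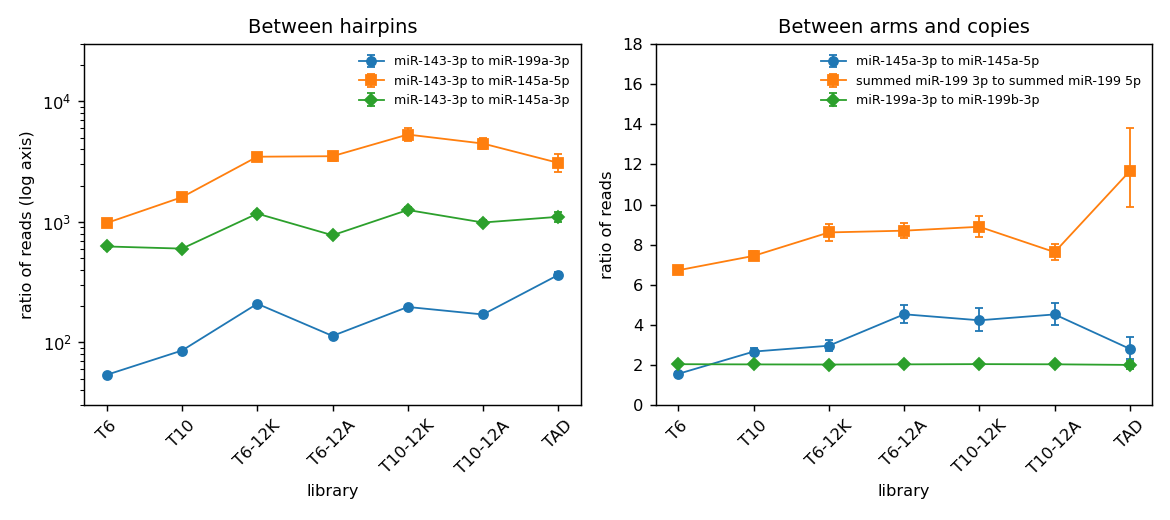
Ratios of reads within each library, with 95% counting intervals as bars, between hairpins on a log axis (left) and between arms or copies on a linear axis (right). miR-143-3p to miR-199a-3p runs from 53.7 in T6 to 362 in TAD, while miR-199a-3p to miR-199b-3p stays between 2.01 and 2.05.

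The first comparison asked how the adult testis differed from the prepuberal testes. In CPM, miR-199a-3p was 2.55-fold lower in TAD than the mean of T6 and T10 (log2 ratio -1.35, 95% interval from -1.44 to -1.27), miR-199a-5p 3.98-fold lower (-1.99, from -2.23 to -1.76) and miR-214-3p 7.18-fold lower (-2.84, from -3.49 to -2.19). miR-199b-5p, miR-214-5p and miR-143-5p were listed at 0 in TAD and so were at least 6.76-fold, 3.165-fold and 2.22-fold lower. Of the 10 arms, 7 were at least 2-fold below T6 and also below T10 in TAD, beside 30.2% of the 331 listed miRNAs (100 of 331), and none was at least 2-fold higher than both, beside 16.9%. The 7 were all miR-199 and miR-214 arms and miR-143-5p, and 2 of them share 1 sequence. The median log2 ratio was -1.34 over the 10 arms, with the 3 listed at 0 taken at their bound, and -0.02 over the 261 miRNAs above 0 in these 3 libraries. These medians cover unlike sets, because the second leaves out miRNAs listed at 0. With zeros at their bound throughout, 8 of the 10 arms had a ratio below 1, beside 58.3% of the 331 miRNAs.

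miR-143-3p was 2.07-fold higher in TAD than the prepuberal mean (log2 ratio 1.05, 95% interval from 1.04 to 1.05), with log2 ratios of 1.32 against T6 and 0.82 against T10. miR-145a-3p gave 0.20 and miR-145a-5p -0.24, the latter with an interval from -0.49 to 0.01. miR-143-3p lay above 0 under all 5 scalings for depth, from 0.34 to 1.24, whereas miR-145a-3p ranged from -0.51 to 0.39. The lowest values came from the signal as deposited, in which the median over all miRNAs was itself -0.74 and 157 miRNAs of the whole table were called lower and 29 higher, against 100 and 56 in CPM. Relative to the median of each scaling, miR-143-3p lay above and the miR-199 and miR-214 arms below under all 5.

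The second comparison asked how levels after 12 days of culture differed from those at the start, at each age. No uncultured testis 12 days older than the start was sequenced, so culture and 12 days of development cannot be told apart here. At 6.5 dpp, miR-143-3p was 1.04 higher on the log2 scale in T6-12K than in T6 and 0.59 higher in T6-12A. At 10.5 dpp, T10-12K lay 0.45 and T10-12A 0.27 above T10. miR-199a-3p had a log2 ratio of the cultures' mean to the start of -0.68 at 6.5 dpp and -0.74 at 10.5 dpp, and miR-214-3p of -1.27 (95% interval from -1.39 to -1.14) and -1.59 (-1.77 to -1.42). miR-145a-5p gave -1.0 and -1.24.

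These values are to be read beside the whole table, because the median over miRNAs above 0 was itself -0.90 at 6.5 dpp and -0.73 at 10.5 dpp in CPM. With median-of-ratios factors the medians were -0.24 and -0.17, and miR-199a-3p then stood at 0.01 and -0.18, whereas miR-214-3p stood at -0.62 and -1.04 and miR-143-3p at 1.61 and 0.92. Relative to the median, miR-199a-3p differed little from the listed miRNAs as a whole, miR-214-3p lay below it and miR-143-3p above it. At 6.5 dpp no arm was at least 2-fold lower in both cultures, beside 32.0% of the 331 miRNAs, and none was 2-fold higher in both, beside 8.16%. At 10.5 dpp miR-145a-5p and miR-214-3p were at least 2-fold lower in both cultures, beside 32.3%, and none was higher, beside 7.85%. With median-of-ratios factors, 50 miRNAs of the whole table were lower and 45 higher at 6.5 dpp, against 106 and 27 in CPM, and 62 were lower and 39 higher at 10.5 dpp, against 107 and 26. Taken alone, T6-12A and T6-12K each had 3 arms lower, beside 125 and 188 of the 331 miRNAs, T10-12A had 3, beside 137, and T10-12K had 4, beside 132. By median-of-ratios factors no arm was lower in both cultures at either age, and miR-143-3p was at least 2-fold higher in both at 6.5 dpp. Over the 5 scalings miR-143-3p at 10.5 dpp ranged from 0.05 in the deposited signal, beside a median of -1.04, to 1.13. These comparisons share T6 and T10 with the comparison of the adult.

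**Figure D4:**
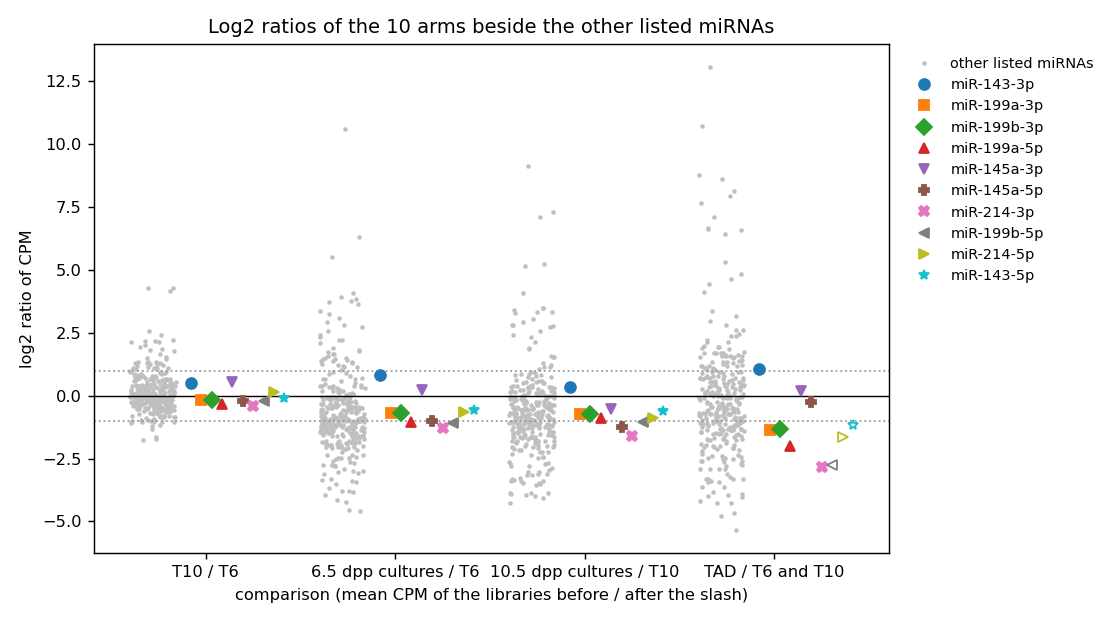
Log2 ratios of CPM for the 10 arms (symbols) beside the other listed miRNAs (grey points) in 4 comparisons, with dotted lines at 2-fold. Open symbols are arms listed at 0 in TAD, taken at the worth of 5 reads, and miR-143-3p lies above 0 in each comparison while miR-214-3p has the lowest measured value, beside the bound of miR-199b-5p in TAD, which may lie lower.

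Before culture, T10 and T6 differed by less than 2-fold in all 10 arms. None was 2-fold lower, beside 4.23% of the 331 miRNAs, and none 2-fold higher, beside 10.9%. The log2 ratio of T10 to T6 was 0.49 for miR-143-3p, 0.55 for miR-145a-3p, -0.18 for miR-199a-3p, -0.33 for miR-199a-5p and -0.41 for miR-214-3p.

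AlbuMAX I was compared with KSR at each age, with 1 library on either side. The paper reports smaller explants and frequent aberrant nuclei with AlbuMAX I, and took its cell counts from KSR cultures only. The part of such tissue differences in the miRNA levels was not tested. The log2 ratio of AlbuMAX I to KSR for miR-143-3p was -0.44 at 6.5 dpp, where the median of all miRNAs above 0 was 0.63, and -0.18 at 10.5 dpp, where it was -0.03. For miR-199a-3p it was 0.45 (95% interval from 0.41 to 0.48) and 0.03 (-0.02 to 0.07). miR-143-5p was the 1 arm at least 2-fold lower with AlbuMAX I at 6.5 dpp, on 29 against 68 reads, beside 5.74% of all miRNAs. None was 2-fold higher there, beside 26.6%. With median-of-ratios factors 44 miRNAs of the whole table were lower and 36 higher at 6.5 dpp, against 19 and 88 in CPM, and miR-199a-3p stood at -0.11 there. At 10.5 dpp miR-143-3p lay between -0.21 and -0.15 over the 5 scalings and miR-199a-3p between -0.01 and 0.06. At 10.5 dpp miR-199b-5p was the 1 arm at least 2-fold lower, on 51 against 89 reads, beside 5.44%, and none was higher, beside 5.44%.

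The adult was also set against the 4 cultures. No arm was at least 2-fold lower in TAD than in all 4 of them in CPM, beside 7.55% of the 331 miRNAs, and none was 2-fold higher, beside 22.7%. Without T10-12A, 2 arms were lower, miR-214-3p and miR-199b-5p, beside 33 of the 331 miRNAs. The log2 ratio of TAD to the mean of the cultures was -0.64 for miR-199a-3p, -1.03 for miR-199a-5p, -1.45 for miR-214-3p, 0.47 for miR-143-3p and 0.87 for miR-145a-5p, with a median over all miRNAs above 0 of 0.41. With the trimmed mean of M-values 68 miRNAs of the whole table were lower and 46 higher, against 25 and 75 in CPM, and 6 arms were lower. Over the 5 scalings miR-143-3p ranged from -0.27 to 0.47 and so changed direction, whereas miR-145a-5p ranged from 0.10 to 0.87.

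The profile of each main arm over the 7 libraries was compared with those of 116 other miRNAs whose mean level was 100 CPM or more, by the root-mean-square difference of log2(CPM + 1), each centred on its own mean. The most similar to miR-143-3p was miR-27a-3p at 0.27, followed by miR-1843a-5p at 0.43 and miR-378a-3p at 0.45. For miR-145a-5p they were miR-676-3p at 0.26, miR-301a-3p at 0.27 and miR-182-5p at 0.29. For miR-199a-3p they were miR-148a-5p at 0.20, miR-98-5p at 0.23 and let-7a-5p at 0.23, and for miR-214-3p miR-434-3p at 0.25, miR-181d-5p at 0.28 and miR-541-5p at 0.28. By the same measure miR-143-3p differed from miR-145a-3p by 0.40 and from miR-145a-5p by 0.79, and miR-199a-3p differed from miR-214-3p by 0.52 and from miR-199a-5p by 0.21. The members themselves were not among the 116. In the ranking for miR-143-3p, miR-145a-3p at 0.40 stood between miR-27a-3p and miR-1843a-5p. A nearly flat profile also gives a low value beside an arm of small spread, so the measure does not by itself show a shared rise and fall. miR-378a-3p, at 0.45, stood at 420 CPM in T6 and 386 in TAD, the lowest and highest libraries of miR-143-3p.

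Lists of miRNAs known from other cell types were read in the same libraries. Of 12 other miRNAs reported in fibroblasts and smooth muscle, 11 were listed. In TAD 1 of them (miR-152-3p) was at least 2-fold lower than in both prepuberal testes, beside 30.2% of the 331 listed miRNAs. At least 2-fold higher were 3 (miR-29a-3p, miR-29c-3p and miR-195a-5p), beside 16.9%. The median log2 ratio over the 11 in TAD was 0.35. At 6.5 dpp, miR-29a-3p, miR-29c-3p and miR-21a-5p were at least 2-fold higher in both cultures, beside 8.16% of the 331 miRNAs. At 10.5 dpp, miR-29a-3p and miR-21a-5p were, beside 7.85%. None of the 11 was 2-fold lower in both cultures at either age, beside 32.0% and 32.3%. The summed level of the 11 lay between 17718 and 27326 CPM in the cultures, at 18573 in T6, 21007 in T10 and 19043 in TAD. The 6 germ cell miRNAs of the miR-34 and miR-449 families, used to check the tissue, summed to 74.0 CPM in T6, 164 in T10, between 614 and 1972 in culture and 25799 in TAD. Their part in the lower miR-199 and miR-214 levels was not tested.

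The endothelial pair miR-126a-3p and miR-126a-5p summed to 190 CPM in T6, 181 in T10, between 124 and 249 in culture and 405 in TAD. Of 7 striated muscle miRNAs only miR-133a-3p was listed, at 23.35 CPM in T6, 30.4 in T10, between 2.60 and 25.9 in culture and 28.2 in TAD. Of 4 leukocyte miRNAs 2 were listed, summing to 12.2 CPM in T6, 10.8 in T10, between 5.54 and 10.2 in culture and 45.4 in TAD. The 5 erythroid miRNAs summed to 3364 CPM in T6, 2973 in T10, between 887 and 5125 in culture and 2216 in TAD. Of these 5, miR-451a, miR-144-3p and miR-144-5p were at least 2-fold lower in both cultures at each age. The share over the 331 listed miRNAs was 32.0% at 6.5 dpp and 32.3% at 10.5 dpp. The median log2 ratio over the 5, taken at the worth of 5 reads where listed at 0, was -1.40 at 6.5 dpp and -3.39 at 10.5 dpp. The erythroid miRNAs miR-486a-5p and miR-486b-5p were not 2-fold lower in both cultures at either age. The erythroid sum in T6-12K, 5125 CPM, lay above the 3364 of T6. The part of the lower miR-451a and miR-144 levels in the culture values of the miR-143, miR-145, miR-199 and miR-214 arms was not tested. Of 6 epithelial miRNAs 5 were listed, summing to 104.5 CPM in T6, 199.7 in T10, between 266 and 401 in culture and 254 in TAD. None of these lists had the order of miR-199a-3p, highest in T6 and lowest in TAD, in its summed level. A sum mostly follows its most abundant members, and single miRNAs can differ from it. On the fibroblast and smooth muscle list, miR-152-3p was highest in T6 (76.5 CPM) and lowest in TAD (26.4 CPM). No other miRNA of that list had both ends of this order.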

How the data were processed

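Small RNAs of 7 testis libraries, 1 per condition, were sequenced. The signal deposited per mature miRNA holds reads scaled by 1 factor for each library. According to the study's methods, the authors trimmed adaptors, ran FastQC, aligned reads with Bowtie to mm10 and then to miRBase 21, and discarded miRNAs with fewer than 50 reads. The authors' processing notes also name HTSeq and DESeq, in a role not given there. The 7 per-library files were identical to the table of the series.

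The worth of 1 read was found per library as the step of which low values are whole multiples, which recovered 100% of the reads in 35 simulated libraries of 331 miRNAs. CPM was computed over listed miRNAs, and values at 0 were set to 5 reads for ratios. No test was run, since no condition had a replicate library. Called means at least 2-fold in every pair of libraries compared. Wilson intervals (scipy 1.17.1) were used for shares. Alternatives were median-of-ratios factors, TMM (a trimmed mean of M-values that drops 30% of log ratios and 5% of mean levels), the deposited signal, reads not scaled for depth, CPM with miR-10b-5p and the members left out of the total, pseudocounts of 0.1, 1 and 10, filters, and thresholds of 1.5-fold and 4-fold. The text names all members, the 3 most similar miRNAs of 100 CPM or more on average for each of 4 arms, and lists. The members and lists were chosen with earlier results of these data known. Positions come from GENCODE mouse release 21, with Python 3.11.15, numpy 2.4.6, pandas 2.3.3 and matplotlib 3.10.9.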

Additional observations from a re-analysis of the deposited data

Results flagged for a closer look

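In CPM, 2 members had opposite directions at the 2 starting ages beyond counting error, and neither difference was tested. miR-214-3p was higher with AlbuMAX I than with KSR at 6.5 dpp (log2 ratio 0.93, 95% interval from 0.72 to 1.14) and lower at 10.5 dpp (-0.55, from -0.85 to -0.25), a difference of 1.48. It went in opposite directions under all 5 scalings for depth, with 0.37 and -0.53 by median-of-ratios factors. By sign alone, without a condition on counting error, opposite directions at the 2 ages were found for 157 of the 331 miRNAs (47.4%). By that looser rule 2 members had them.

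miR-145a-3p was higher in both 6.5 dpp cultures than in T6 (log2 ratio of the mean 0.21) and lower in both 10.5 dpp cultures than in T10 (-0.53), a difference of 0.74. This holds for CPM, the deposited signal and CPM without miR-10b-5p and the members in the total. With median-of-ratios factors both values were above 0, at 0.93 and 0.03, as they were with the trimmed mean of M-values, at 0.99 and 0.24. Opposite directions in both cultures, again without a condition on counting error, were found for 14 of the 331 miRNAs (4.2%).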

How the results depend on the processing

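No paired analysis was possible because the counts come from no test and groups of 1 library share fewer than 2 replicate numbers. Cultures were set against the start within each age. Reads not scaled for depth carry the depth gap between libraries, up to 13397407 reads in T10 against 1628770 in TAD, and are given here as planned. Of 188 recomputed counts of members past the threshold, 138 stayed within 1.5 times the main count. These include main counts of 0 that stayed at 0, as all did for T10 against T6. In TAD against T6 and T10, 7 arms were lower, 6 with median-of-ratios factors or the trimmed mean of M-values, and 10 with unscaled reads, beside 284 of all 331. The count was 3 when limited to the 5 members with a mean of at least 100 CPM or the 6 with at least 50 reads in every library, by construction of these filters, and 2 at 4-fold. It was 7 without T6 and 7 without T10. The count of higher arms was 0, and 1 (miR-143-3p) with median-of-ratios factors and at 1.5-fold, and between 0 and 1 when T6 or T10 was left out. The log2 ratio of miR-143-3p reversed to -1.99 in unscaled reads, where the median over all miRNAs was -3.06, and lay above 0 under every scaling for depth.

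In the 6.5 dpp cultures against T6, 0 arms were lower, 4 with unscaled reads, 4 at 1.5-fold, 3 without T6-12K and 3 without T6-12A, beside 142, 157, 125 and 188 of all 331. The number of higher arms, 0, became 1 with median-of-ratios factors, the trimmed mean of M-values, the total without miR-10b-5p and the members, and 1.5-fold, and between 0 and 1 without either culture. In the 10.5 dpp cultures against T10, 2 arms were lower, 0 with median-of-ratios factors, the trimmed mean of M-values, the total without miR-10b-5p and the members, the limit of 100 CPM and 4-fold, 1 with at least 50 reads, 5 in the deposited signal, 9 with unscaled reads, 6 at 1.5-fold, 3 without T10-12K and 4 without T10-12A. The whole table also moved, from 107 miRNAs in CPM to 150 in the deposited signal, 167 at 1.5-fold, 137 without T10-12K and 132 without T10-12A, and further still with unscaled reads. The count of higher arms was 1 with the trimmed mean of M-values.

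For AlbuMAX I against KSR at 6.5 dpp, the 1 lower arm became 3 with median-of-ratios factors, 2 with the trimmed mean of M-values and 0 with a pseudocount of 10, either filter or 4-fold. The higher count of 0 became 1 with unscaled reads and 2 at 1.5-fold. At 10.5 dpp, the 1 lower arm became 0 with unscaled reads, a pseudocount of 1 or 10, either filter or 4-fold, and 1 was higher at 1.5-fold. For TAD against the 4 cultures, the lower count of 0 became 3 with median-of-ratios factors, the deposited signal, the total without miR-10b-5p and the members, pseudocounts of 0.1 and 1 and 1.5-fold, 6 with the trimmed mean of M-values and 9 with unscaled reads, beside 181 of all 331. It ranged from 0 to 2 when 1 culture was left out, with 2 without T10-12A. The ratios within a library do not depend on these settings. In TAD, levels below 3.07 CPM could not be measured.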

Other observations

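miR-143-3p was also set against miR-10b-5p, the most abundant miRNA of every library. The ratio of their reads was 0.226 in T6 and 0.327 in T10 before culture, 0.391 in T6-12K and 0.408 in T10-12K with KSR, 0.301 in T6-12A and 0.348 in T10-12A with AlbuMAX I, and 0.828 in TAD. The adult lay above the other 6 libraries, 3.67 times the value of T6, and this ratio needs no scaling between libraries. miR-10b-5p is not a constant reference. It held 46.0% of the listed miRNA reads in T6, 44.6% in T10, between 48.9 and 54.4% in the cultures and 31.2% in TAD. The higher ratio in TAD thus holds both more miR-143-3p and less miR-10b-5p as shares of the library. miR-145a-3p to miR-199a-3p, a ratio between the less abundant arms of the hairpin groups, was 0.0860 in T6, 0.142 in T10, between 0.146 and 0.178 in the cultures and 0.329 in TAD (95% interval from 0.293 to 0.369).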
